A study of Mus musculus with 9 samples.

Results

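Solute carriers are the membrane proteins that the *Slc* gene symbols name, and the carriers detected in midgestation mouse tissue are described here. The members were chosen by detection: a probe was taken when its symbol began with *Slc* and a number and its detection p-value was under 0.01 on all 3 arrays of at least 1 tissue group. This selected 164 probes of 126 genes, out of 404 *Slc* probes of 276 genes on the array and 25697 probes of 18120 symbols in all. *Slc4a1*, *Slc26a4*, *Slc26a5* and *Slc17a8* were left out by name, which removed 3 probes, 1 of which met the detection rule, and 237 further *Slc* probes did not meet it. Total RNA came from CD-1 mouse embryos at E10.5, when the otic vesicle (OV), the epithelial sac from which the inner ear forms, has closed. Pools of dissected OV, of periotic tissue (the mesenchyme and hindbrain around the vesicle) and of whole embryos without the otic region (embryo-minus-otic) were each hybridized to 3 one-colour bead arrays. The labels name no transgene, deletion or treatment, and each array held pooled tissue rather than 1 animal. Intensities below are log2 values after quantile normalization, except the sums of marker lists, which are on the linear scale. The adjusted p of limma over all probes is *q*, and a probe was called at *q* under 0.05.

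Carriers of this superfamily move amino acids, sugars, ions, metals, vitamins and lipids across the plasma membrane, or load them into organelles such as the Golgi, synaptic vesicles and mitochondria. Some work alone and some need a partner subunit, and many depend on gradients that the sodium pump builds. In the mature inner ear, epithelial carriers of chloride, potassium and bicarbonate maintain the potassium-rich endolymph, and several deafness genes belong to this group. At E10.5 the vesicle is a young epithelium and has not yet formed sensory cells.

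A few promoters are shown because their genes are described below as clearly higher or lower in OV, and because they differ in the short motifs they hold. Each window is 300 bases long, most of them ahead of the transcription start, and comes from RefSeq on GRCm38.p6, at chr1:131743772-131744071 (plus strand) for *Slc26a9*, chr10:117746309-117746608 (minus strand) for *Slc35e3* and chr4:119108495-119108794 (plus strand) for *Slc2a1*. Capitals mark AGATAA, the sequence that GATA factors bind, and ACGTG, the core of the hypoxia and E-box elements, on either strand.
Slc26a9: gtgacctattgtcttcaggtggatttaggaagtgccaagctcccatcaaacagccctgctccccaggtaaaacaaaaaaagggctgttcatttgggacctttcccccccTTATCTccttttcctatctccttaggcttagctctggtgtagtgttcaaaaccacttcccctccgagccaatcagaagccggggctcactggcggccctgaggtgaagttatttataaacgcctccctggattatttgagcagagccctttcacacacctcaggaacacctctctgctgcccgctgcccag
Slc35e3: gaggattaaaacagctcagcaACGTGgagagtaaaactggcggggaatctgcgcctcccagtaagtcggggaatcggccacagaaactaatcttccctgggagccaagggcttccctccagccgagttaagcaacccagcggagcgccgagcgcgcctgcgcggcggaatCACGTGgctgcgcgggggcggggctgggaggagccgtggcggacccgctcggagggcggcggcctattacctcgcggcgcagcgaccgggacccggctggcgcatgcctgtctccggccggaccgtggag
Slc2a1: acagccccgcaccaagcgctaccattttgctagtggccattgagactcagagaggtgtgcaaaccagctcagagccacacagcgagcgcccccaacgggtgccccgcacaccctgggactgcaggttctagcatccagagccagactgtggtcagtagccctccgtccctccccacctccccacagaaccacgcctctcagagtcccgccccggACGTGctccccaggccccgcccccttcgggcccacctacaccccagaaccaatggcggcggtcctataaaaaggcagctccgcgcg
AGATAA was present in 11.2% of the 32851 promoters of the table and in 10.3% of the 145 promoters found for 102 member genes. ACGTG was present in 19.6% of all and 29.0% of the member promoters, and CACGTG, which contains it on both strands, in 7.15% and 12.4%. The *Slc35e3* promoter held ACGTG 3 times, with one CACGTG counted on each strand, and the promoter of *Slc2a1* held it once. These motifs were chosen after the levels had been seen, and a match is a description of the letters and not a binding site. No promoter of *Slc7a3*, *Slc2a3* or *Slc40a1* was in the table.

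Of the 164 probes, 124, from 100 genes, were above background on all 9 arrays, 21 were above background on no array of at least 1 group, and 19 lay between. The share of *Slc* probes that met the rule was 40.6%, against 46.1% of all probes on the array. Among detected probes, 75.6% of the *Slc* probes and 82.4% of all probes were on all 9 arrays. On all 3 arrays of OV and of no other group were 15 *Slc* probes, or 9.15%, against 4.01% of all detected probes. Periotic tissue alone had 8 *Slc* probes (4.88%, against 3.39% of all detected probes) and embryo-minus-otic tissue alone had 3 (1.83% against 2.41%). OV with periotic tissue had 8 (4.88% against 3.44%), periotic with embryo-minus-otic tissue 6 (3.66% against 2.95%) and OV with embryo-minus-otic tissue 0 (against 1.36%). These shares follow from the detection rule and carry no test. Just inside the threshold lay *Slc16a9*, the second probe of *Slc1a2* and a probe of *Slc7a7*, each with a largest detection p-value of 0.008772 in its best group, and just outside lay *Slc39a3* and *Slc41a3*, at 0.01128. Only the 124 probes on all 9 arrays entered counts of calls, since the rule did not use differences between groups in them. They are called carriers below, although 4 of them encode no transporter.

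The transporter classes differed in how many of their probes were detected. Mitochondrial carriers had 29 of 43 probes detected (67.4%), carriers of nucleotide sugars and other Golgi or ER substrates 21 of 35 (60.0%) and metal carriers 24 of 47 (51.1%). Amino acid carriers had 24 of 66 (36.4%), carriers of ions, protons, chloride and bicarbonate 24 of 71 (33.8%), monocarboxylate and fatty acid carriers 8 of 24 (33.3%) and sugar carriers 9 of 28 (32.1%). Carriers of vitamins and nucleosides had 7 of 20 (35.0%), those of bile acids, organic ions and peptides 8 of 39 (20.5%), those of phosphate and sulfate 3 of 17 (17.6%) and vesicular transmitter carriers 3 of 6. A further 4 detected probes carry *Slc* symbols but encode no transporter.

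The carriers that differed between the tissues included amino acid and glucose carriers with large changes. Of the 124 probes, 11 (8.87%) were higher in OV than in periotic tissue and 10 (8.06%) were lower. Over all 9767 probes on all 9 arrays the shares were 8.72% higher and 9.0% lower, and over all 25697 probes they were 5.07% and 5.15%. Against embryo-minus-otic tissue, 14 (11.3%) were higher in OV and 9 (7.26%) lower, beside 10.48% and 9.02% of all probes on all 9 arrays and 5.89% and 5.51% of all probes. Between the non-otic groups, 5 (4.03%) were higher in periotic tissue and 4 (3.23%) lower, beside 5.2% and 4.7% of the probes on all 9 arrays and 2.86% and 2.95% of all probes. The carriers were thus called at shares close to those of other probes measured on every array. The comparisons share arrays, so their counts are not independent.

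**Figure D1:**
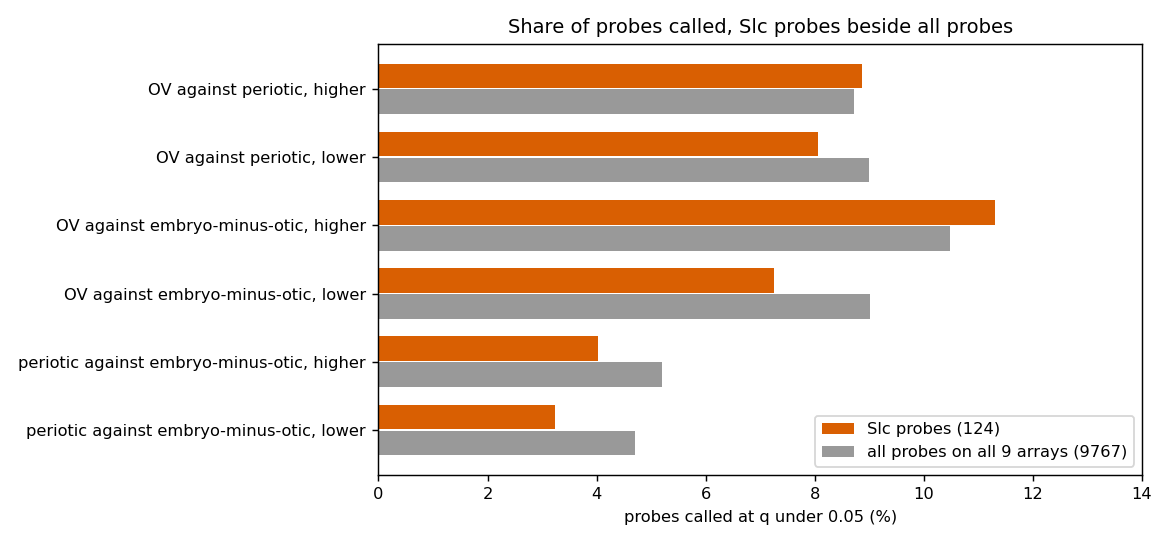
Percentage of probes called at *q* under 0.05 in each comparison and direction (x axis), for the 124 *Slc* probes above background on all 9 arrays and for all 9767 such probes. The paired bars are of similar length in every comparison, for example 8.87% and 8.72% for higher in OV than in periotic tissue.

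No comparison called 89 of the 124 probes (71.8%), beside 71.5% of all probes on all 9 arrays. The median absolute difference of the carriers was 0.14 for OV against periotic tissue, 0.16 against embryo-minus-otic tissue and 0.13 between the non-otic groups, and that of all probes was 0.15, 0.17 and 0.14. A change of 2-fold or more was called for 2 probes higher (1.61%, beside 1.56% of all probes on all 9 arrays) and 2 lower (1.61% beside 1.64%) in OV than in periotic tissue. Against embryo-minus-otic tissue it was called for 2 higher (1.61% beside 1.37%) and 4 lower (3.23% beside 1.48%), and between the non-otic groups for 1 each way (0.806% beside 0.481% higher and 0.512% lower). The split of calls depended on the scaling: the share of called carriers that were higher was 52.4% for OV against periotic tissue, 46.2% with median normalization and 37.5% without normalization. For OV against embryo-minus-otic tissue it was 60.9% and 76.2%, with 5 probes each way without normalization, and between the non-otic groups 55.6%, then 83.3% with median normalization and 33.3% without. Leaving out 1 array moved some counts by over 1.5 times: the 11 became 7 without OV replicate 3 or periotic replicate 1, the 10 became 6 without periotic replicate 3, and the 14 became 8 without embryo-minus-otic replicate 2. Between the non-otic groups, the 5 became 3 without periotic replicate 1 or 2, and the 4 became 7 without periotic replicate 3.

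**Figure D2:**
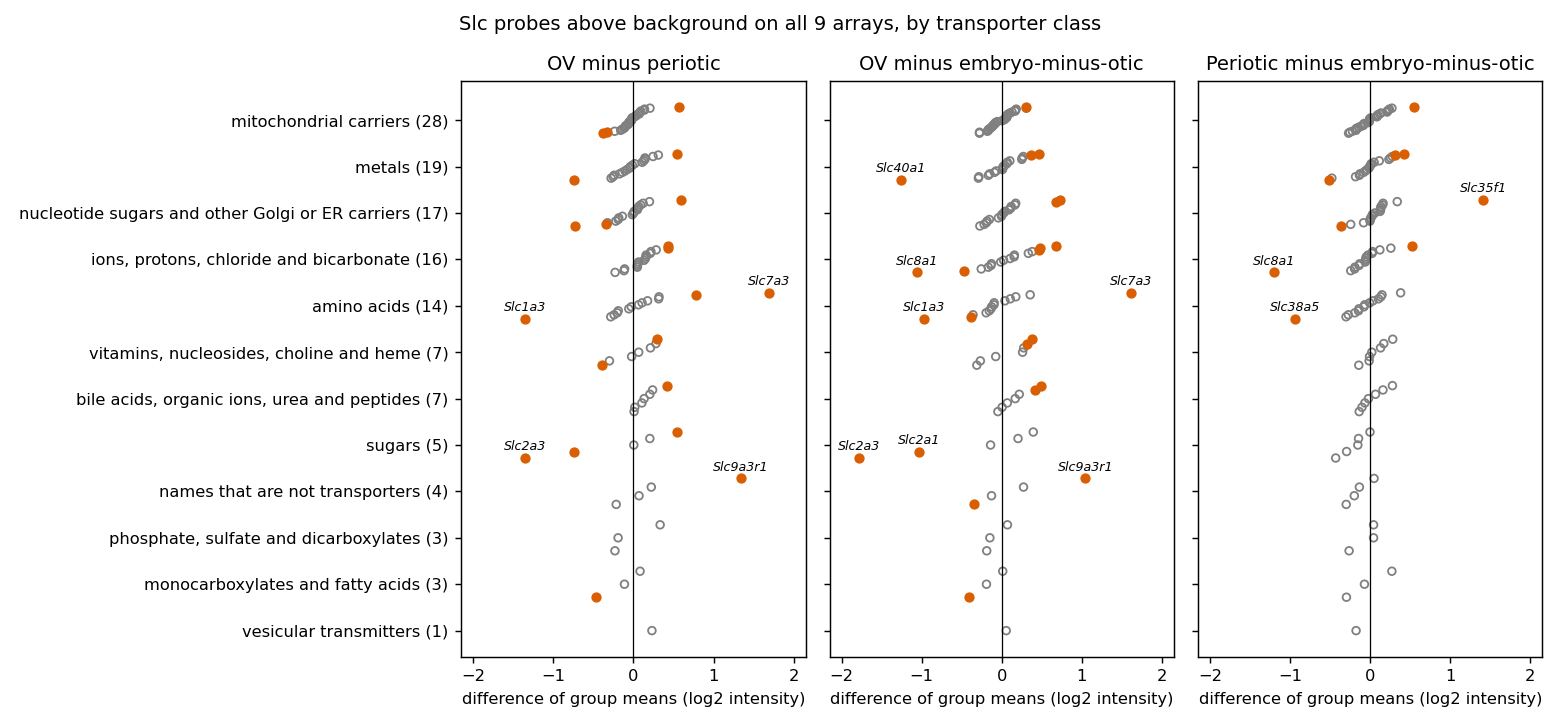
Difference of group means in log2 intensity (x axis) for each of the 124 *Slc* probes detected on every array, by transporter class (rows, with the number of probes), in the 3 comparisons. Filled points were called at *q* under 0.05 and names are given to called probes beyond 0.9. Most points lie close to 0, and the named ones are in the amino acid, sugar, ion, metal and Golgi classes and among the names that are not transporters.

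Amino acid carriers included the probe with the largest rise in OV among the carriers on all 9 arrays. *Slc7a3*, a cationic amino acid transporter that imports arginine and lysine, read 8.05, 8.0004 and 8.29 on the OV arrays, 6.44, 6.32 and 6.50 on the periotic arrays and 6.50, 6.31 and 6.68 on the embryo-minus-otic arrays. All OV arrays lay above all others, and the non-otic groups overlapped. The OV mean was 1.69 higher than in periotic tissue (SE 0.11, 3.23-fold, *q* = 2.49e-08) and 1.61 higher than in embryo-minus-otic tissue (SE 0.11, 3.06-fold, *q* = 4.90e-08). These values are from a single probe, and a second *Slc7a3* probe was above background on no array. *Slc38a5*, a carrier of glutamine and other neutral amino acids, read 8.32, 8.18 and 8.36 in OV, 7.90, 7.40 and 7.20 on the periotic arrays and 8.56, 8.39 and 8.38 in embryo-minus-otic tissue. Periotic tissue was low on all its arrays, and its mean was below that of OV by 0.78 (SE 0.139, *q* = 0.00112) and below that of embryo-minus-otic tissue by 0.94 (SE 0.139, *q* = 0.000423).

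The glutamate carrier *Slc1a3*, known from glia and neural progenitors, read 8.16, 8.46 and 8.01 in OV, 9.79, 9.53 and 9.36 on the periotic arrays and 9.08, 9.11 and 9.35 in embryo-minus-otic tissue. OV was lowest on every array, by 1.35 against periotic tissue (SE 0.13, 2.55-fold, *q* = 2.28e-06) and by 0.97 against embryo-minus-otic tissue (SE 0.13, 1.96-fold, *q* = 7.84e-05). The difference of 0.38 between the non-otic groups was not called (*q* = 0.124). The glycine carrier *Slc6a9* was lower in OV than in embryo-minus-otic tissue by 0.39 (SE 0.111, *q* = 0.034), and this call was lost in 5 of the 9 fits with 1 array left out, namely those without any of the OV arrays or without embryo-minus-otic replicate 1 or 3 (differences between -0.51 and -0.29, *q* up to 0.14). Beside 71.5% of all probes on all 9 arrays, the other 10 of the 14 amino acid probes were called in no comparison. Among these were *Slc7a5*, the large neutral amino acid transporter, with means 0.28 lower in OV than in periotic tissue (*q* = 0.0667), its partner subunit *Slc3a2*, and the taurine carrier *Slc6a6*, which read between 10.77 and 11.26 on the 9 arrays.

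Of the amino acid carriers called above, *Slc1a3* had its group means in the same order as the summed neural tube markers, highest in periotic tissue and lowest in OV. The list held 15 probes of 10 genes, of which 9 met the detection rule, and its summed intensity was 1857 to 1922 on the OV arrays, 4813 to 5758 on the periotic arrays and 2454 to 2855 on the embryo-minus-otic arrays. Of the 6 probes on all 9 arrays, 5 were lower in OV than in periotic tissue, but only 2 were lower than in embryo-minus-otic tissue. Between the non-otic groups, 4 were higher in periotic tissue. Probes of *Neurog2* and *Nkx6-1* were above background on no OV array, and 5 probes, for *Dcx*, *Olig2*, *Pax6*, *Sox1* and *Tubb3*, on no array at all. The part of neural tissue in the difference of *Slc1a3* was not tested. In dissected bulk tissue, fewer cells of a type and less RNA per cell cannot be told apart.

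**Figure D3:**
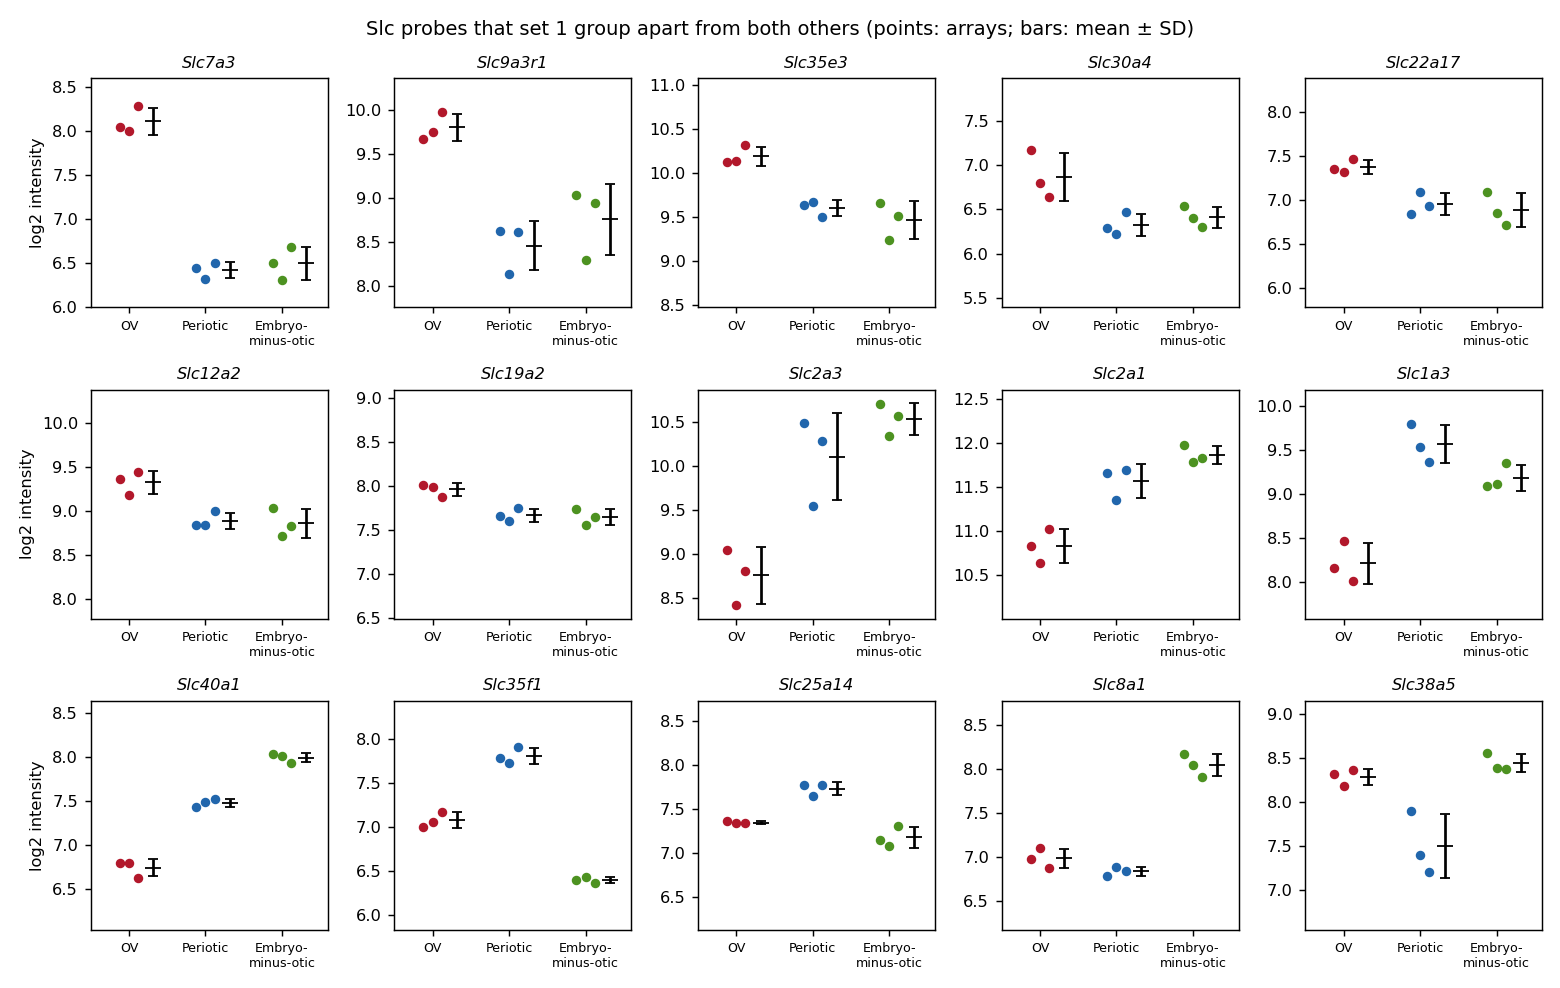
Normalized log2 intensity (y axis, the same span of 2.6 in each panel) on each of the 9 arrays for 15 *Slc* probes that set 1 tissue group apart from both others; points are arrays and bars are the mean ± SD of 3 arrays. *Slc7a3* and *Slc9a3r1* are highest in OV, *Slc2a3*, *Slc2a1*, *Slc1a3* and *Slc40a1* lowest in OV, *Slc35f1* and *Slc25a14* highest in periotic tissue and *Slc8a1* highest in embryo-minus-otic tissue.

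The glucose carrier *Slc2a3* had the largest fall in OV against embryo-minus-otic tissue among the carriers on all 9 arrays. This high-affinity transporter read 9.06, 8.42 and 8.81 in OV, 10.49, 9.55 and 10.29 on the periotic arrays and 10.71, 10.35 and 10.57 in embryo-minus-otic tissue. Every OV array lay below every other array, by 1.35 in the mean against periotic tissue (SE 0.201, *q* = 0.000212) and by 1.78 against embryo-minus-otic tissue (SE 0.201, 3.43-fold, *q* = 1.27e-05). *Slc2a1*, the glucose transporter of red cells and of the blood-brain barrier, read 10.83, 10.64 and 11.03 in OV, 11.66, 11.35 and 11.70 on the periotic arrays and 11.97, 11.79 and 11.83 in embryo-minus-otic tissue. It was again lowest in OV, by 0.74 (SE 0.116, *q* = 0.000369) and 1.03 (SE 0.116, *q* = 1.26e-05), and the difference of 0.29 between the non-otic groups was not called (*q* = 0.2). *Slc45a4*, placed with the sugar carriers by family, was higher in OV than in periotic tissue by 0.55 (SE 0.126, *q* = 0.00859), with values of 7.23, 7.25 and 7.73 against 6.999, 6.88 and 6.69. *Slc2a8* and *Slc2a4*, the insulin-responsive glucose transporter, were called in no comparison.

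Metal carriers held calls in both directions in OV. *Slc40a1*, the iron exporter ferroportin, read 6.79, 6.80 and 6.63 in OV, 7.43, 7.49 and 7.52 on the periotic arrays and 8.04, 8.01 and 7.93 in embryo-minus-otic tissue. The 3 groups did not overlap, and each step was called: OV was below periotic tissue by 0.74 (SE 0.0851, *q* = 1.58e-05), OV below embryo-minus-otic tissue by 1.25 (SE 0.0851, *q* = 4.82e-08) and periotic below embryo-minus-otic tissue by 0.51 (SE 0.0851, *q* = 0.00121), the last of which was not called with median normalization. *Slc30a4*, which loads zinc into vesicles, read 7.17, 6.80 and 6.64 in OV, 6.29, 6.22 and 6.47 on the periotic arrays and 6.54, 6.40 and 6.30 in embryo-minus-otic tissue. Its OV mean was higher by 0.54 (SE 0.124, *q* = 0.0086) and 0.46 (SE 0.124, *q* = 0.0244), and the second call was lost without OV replicate 1 or 2 or embryo-minus-otic replicate 2 or 3 (differences between 0.31 and 0.58, *q* up to 0.125).

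Among the other metal carriers, the zinc transporter family member *Slc39a11* was higher in periotic than in embryo-minus-otic tissue by 0.43 (*q* = 0.0132), a call lost without periotic replicate 1 or 2 (lowest difference 0.37, *q* up to 0.0792). The copper importer *Slc31a1* differed there by 0.31 (*q* = 0.0499), just inside the threshold, and its call was lost in 8 of the 9 fits with 1 array left out, all but that without embryo-minus-otic replicate 1 (differences between 0.27 and 0.37, *q* up to 0.16). *Slc11a2*, the divalent metal importer that erythroblasts use to take up iron, was higher in OV than in embryo-minus-otic tissue by 0.36 (*q* = 0.0146), a call lost without OV replicate 3 or embryo-minus-otic replicate 2 (lowest difference 0.31, *q* up to 0.0797). No comparison called 14 of the 19 metal carrier probes on all 9 arrays, among them *Slc39a6* and *Slc30a5*, which moves zinc into the early secretory pathway. Over all probes on all 9 arrays the uncalled share was 71.5%.

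Red cell markers moved with *Slc40a1* and the glucose carriers. The erythroid list held 14 probes of 11 genes, of which 9 met the detection rule, and its summed intensity was 16780 to 40950 on the OV arrays, 64570 to 75130 on the periotic arrays and 85430 to 92390 on the embryo-minus-otic arrays. All 8 of its probes on all 9 arrays were lower in OV than in either other group, and 4 probes, for *Epb4.2*, *Ermap* and *Gata1*, were above background on no array. Within OV, the erythroid sum was 40950, 30490 and 16780 on replicates 1 to 3, where *Slc2a1* read 10.83, 10.64 and 11.03, *Slc2a3* 9.06, 8.42 and 8.81 and *Slc40a1* 6.79, 6.80 and 6.63. With 3 arrays, the order of these readings carries no test. The endothelial list held 7 probes of 6 genes, of which 6 met the rule, with sums of 829 to 996 in OV, 1107 to 1331 in periotic tissue and 1272 to 1499 in embryo-minus-otic tissue. The part of red cells and vessels in the differences of *Slc2a1*, *Slc2a3* and *Slc40a1* was not tested. Of 9 probes from a list of red cell transporters on all 9 arrays, 3 were lower and 1 was higher in OV than in periotic tissue, and the higher one was *Slc38a5*. Among all probes on all 9 arrays, 9.0% were lower and 8.72% higher in that comparison.

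Of 16 ion carrier probes on all 9 arrays, 6 had a call and 10 had none, beside 71.5% of all such probes with none. *Slc8a1*, the sodium-calcium exchanger of heart muscle, read 8.17, 8.04 and 7.91 in embryo-minus-otic tissue, 6.98, 7.10 and 6.88 in OV and 6.78, 6.89 and 6.84 in periotic tissue. Embryo-minus-otic tissue lay above all other arrays, by 1.06 over OV (SE 0.0935, *q* = 9.64e-07) and by 1.21 over periotic tissue (SE 0.0935, *q* = 5.60e-07). The heart list, with 8 probes of 6 genes of which 6 met the rule, summed to 7874 to 8966 in embryo-minus-otic tissue, 434 to 854 in OV and 416 to 456 in periotic tissue. In OV that sum was 854, 434 and 436 on replicates 1 to 3, where *Slc8a1* read 6.98, 7.10 and 6.88. No heart list probe was above background on any periotic array, and 1 of the 2 *Myh6* probes on no array at all. The part of heart muscle in the *Slc8a1* difference was not tested.

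The chloride cotransporters shifted by smaller amounts. *Slc12a2*, the sodium-potassium-chloride cotransporter that the inner ear uses to secrete endolymph, had a probe reading 9.36, 9.18 and 9.44 in OV, 8.84, 8.84 and 8.998 on the periotic arrays and 9.04, 8.72 and 8.83 in embryo-minus-otic tissue. It was higher in OV by 0.44 (SE 0.103, *q* = 0.0107) and 0.47 (SE 0.103, *q* = 0.00649), and the first call was lost without OV replicate 3 or periotic replicate 1 (lowest difference 0.38, *q* up to 0.0609). The other *Slc12a2* probe on all 9 arrays differed by 0.28 and 0.15 in the same direction and was not called (*q* = 0.0792 and 0.411). Further *Slc12a2* probes were above background on no array. *Slc12a7*, a potassium-chloride cotransporter and a deafness gene in mice, was higher in OV than in embryo-minus-otic tissue by 0.48 (*q* = 0.0182), and the call was lost without OV replicate 2 or 3 or embryo-minus-otic replicate 2 (lowest difference 0.39, *q* up to 0.0975).

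*Slc24a3*, a potassium-dependent sodium-calcium exchanger, was lower in OV than in embryo-minus-otic tissue by 0.47 (SE 0.0954, *q* = 0.00334) and was not called with median normalization. One of the 2 *Slc9a8* probes on all 9 arrays, for a proton exchanger of Golgi and endosomes, was higher in OV than in periotic tissue by 0.43 (*q* = 0.0393), and its call was lost in 6 of the 9 fits with 1 array left out, those without OV replicate 1 or 3, any periotic array or embryo-minus-otic replicate 3 (differences between 0.28 and 0.59, *q* up to 0.209). The bicarbonate exchanger *Slc4a2* and the mitochondrial calcium exchanger *Slc8b1*, listed on the array as *Slc24a6*, were called in no comparison. From a list of inner ear transporters, 9 of 18 probes met the detection rule and 7 were on all 9 arrays, of which 4 were higher and 1 lower in OV than in embryo-minus-otic tissue. The higher ones included *Slc12a2*, *Slc12a7* and *Slc19a2*, and the lower one was *Slc1a3*. Among all probes on all 9 arrays, 10.48% were higher and 9.02% lower in that comparison.

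Carriers of the Golgi and ER were marked by a pair of orphan members. *Slc35f1*, a family member whose substrate is not settled, read 7.78, 7.73 and 7.91 in periotic tissue, 7.003, 7.06 and 7.17 in OV and 6.40, 6.43 and 6.36 in embryo-minus-otic tissue. The 3 groups did not overlap, with periotic tissue 0.73 above OV (SE 0.0867, *q* = 2.26e-05), OV 0.68 above embryo-minus-otic tissue (SE 0.0867, *q* = 4.48e-05) and periotic tissue 1.41 above embryo-minus-otic tissue (SE 0.0867, 2.66-fold, *q* = 3.57e-08). The neural tube sum given above was also highest in periotic tissue but was higher in embryo-minus-otic tissue than in OV, and its part in *Slc35f1* was not tested. *Slc35e3*, the promoter of which is shown above, read 10.12, 10.14 and 10.32 in OV, 9.64, 9.68 and 9.50 on the periotic arrays and 9.66, 9.24 and 9.51 in embryo-minus-otic tissue. OV was higher on every array, by 0.59 (SE 0.109, *q* = 0.00163) and 0.72 (SE 0.109, *q* = 0.000255).

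The remaining calls in this class were small. A probe of *Slc35a1*, the CMP-sialic acid carrier, was lower in OV than in periotic tissue by 0.34 (*q* = 0.0483), a call lost in 7 of the 9 fits with 1 array left out, all but those without embryo-minus-otic replicate 1 or 2 (differences between -0.37 and -0.30, *q* up to 0.181), and its second probe was lower by 0.32 and not called (*q* = 0.0842). *Slc35d1*, which carries UDP-sugars for proteoglycan synthesis, was lower in periotic than in embryo-minus-otic tissue by 0.36 (*q* = 0.0404), a call lost in 6 of those fits: without any of the embryo-minus-otic arrays, OV replicate 3 or periotic replicate 1 or 2 (differences between -0.44 and -0.32, *q* up to 0.173). No comparison called 13 of the 17 probes of the class, among them *Slc35b1*, which brings ATP into the ER, and the 2 *Slc35c1* probes for the GDP-fucose carrier. The uncalled share of all probes on all 9 arrays was 71.5%.

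Beside 71.5% of all probes on all 9 arrays, 24 of the 28 mitochondrial carrier probes among these were called in no comparison. Their differences ranged from -0.38 to 0.57 for OV against periotic tissue, from -0.28 to 0.31 against embryo-minus-otic tissue and from -0.27 to 0.55 between the non-otic groups, with medians of -0.02, 0.02 and -0.01. *Slc25a5*, an ADP/ATP carrier, read between 13.18 and 13.39 on the 9 arrays and was not called. The aspartate-glutamate carriers of the mitochondrial malate shuttle moved in opposite directions between OV and periotic tissue. *Slc25a13* read 8.09, 7.82 and 7.91 in OV against 7.37, 7.25 and 7.49 in periotic tissue, 0.57 higher (SE 0.106, *q* = 0.00157). *Slc25a12* read 6.40, 6.62 and 6.41 in OV against 6.74, 6.87 and 6.82, 0.33 lower (SE 0.091, *q* = 0.0286), and this call was lost without OV replicate 1 or 3 or periotic replicate 2 or 3 (differences between -0.40 and -0.29, *q* up to 0.126). *Slc25a14*, known as a brain mitochondrial carrier, read 7.76, 7.64 and 7.77 in periotic tissue, 7.36, 7.33 and 7.34 in OV and 7.15, 7.07 and 7.31 in embryo-minus-otic tissue. Periotic tissue was higher by 0.38 than OV (SE 0.0883, *q* = 0.00894) and by 0.55 than embryo-minus-otic tissue (SE 0.0883, *q* = 0.000879).

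Of the 7 vitamin and nucleoside probes on all 9 arrays, 1 was higher and 1 lower in OV than in periotic tissue. Against embryo-minus-otic tissue, 2 were higher. Of the 7 probes for bile acids, organic ions and peptides, 1 was higher than in periotic tissue and 2 than in embryo-minus-otic tissue, with none lower. Over all probes on all 9 arrays, 8.72% were higher and 9.0% lower in OV than in periotic tissue. Against embryo-minus-otic tissue these shares were 10.48% and 9.02%. *Slc19a2*, the thiamine transporter, whose loss causes deafness with anemia, read 8.02, 7.99 and 7.88 in OV, 7.66, 7.61 and 7.75 on the periotic arrays and 7.75, 7.56 and 7.65 in embryo-minus-otic tissue. It was higher in OV by 0.29 (SE 0.0874, *q* = 0.0458) and 0.31 (SE 0.0874, *q* = 0.0293), with no overlap. The first call was lost in 7 of the 9 fits with 1 array left out, all but those without embryo-minus-otic replicate 1 or 2 (*q* up to 0.166), and the second without OV replicate 1 or 2 or embryo-minus-otic replicate 2 or 3 (*q* up to 0.109). *Slc22a17*, described as a lipocalin receptor, read 7.35, 7.31 and 7.46 in OV, 6.84, 7.09 and 6.94 on the periotic arrays and 7.09, 6.85 and 6.72 in embryo-minus-otic tissue. It was higher in OV by 0.42 (SE 0.106, *q* = 0.0161) and 0.49 (SE 0.106, *q* = 0.00564), and the first call was lost without OV replicate 3 or periotic replicate 1 or 3 (lowest difference 0.36, *q* up to 0.091). A probe of *Slc15a4*, a histidine and peptide carrier of lysosomes, was higher in OV than in embryo-minus-otic tissue by 0.41 (*q* = 0.00619), and its second probe differed by 0.00 (*q* = 0.991). *Slc29a4*, a monoamine carrier, was higher there by 0.38 (*q* = 0.0217), a call lost without OV replicate 2 or 3 or embryo-minus-otic replicate 2 or 3 (lowest difference 0.35, *q* up to 0.0905). The nucleoside transporter *Slc29a1* was lower in OV than in periotic tissue by 0.40 (*q* = 0.0221), a call lost without OV replicate 2 or 3 or periotic replicate 1 or 3 (differences between -0.45 and -0.36, *q* up to 0.0946). The folate carrier *Slc19a1* and the ascorbate carrier *Slc23a2* were called in no comparison.

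Of the 3 monocarboxylate and fatty acid probes on all 9 arrays, 2 had a call and 1 had none, beside 71.5% of all such probes with none. *Slc27a3*, a fatty acid transport protein, was lower in OV than in periotic tissue by 0.46 (SE 0.112, *q* = 0.0125), with 8.68, 8.52 and 8.74 against 9.05, 9.07 and 9.21, and this was lost without OV replicate 2 or periotic replicate 3 (differences between -0.51 and -0.40, *q* up to 0.0747). One probe of *Slc16a6*, a member of the monocarboxylate family, was lower in OV than in embryo-minus-otic tissue by 0.41 (*q* = 0.0338), a call lost in 7 of the 9 fits with 1 array left out, all but those without periotic replicate 2 or 3 (differences between -0.43 and -0.38, *q* up to 0.105), and its other probe differed by 0.01 (*q* = 0.964). The 3 probes of the phosphate class, for *Slc20a1* and *Slc20a2*, which import phosphate, and for the sulfate carrier *Slc13a4*, were called in no comparison. A probe of *Slc25a24*, a mitochondrial carrier of ATP and phosphate, was higher in OV than in embryo-minus-otic tissue by 0.31 (*q* = 0.0493), a call lost in each of the 9 fits with 1 array left out (differences between 0.24 and 0.34, *q* up to 0.182), and its second probe differed by -0.06 (*q* = 0.855). Of the 19 genes with 2 or more probes on all 9 arrays, calls differed between probes of 6 genes, and no gene had probes called in opposite directions.

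A pair of the names that are not transporters gave calls. *Slc9a3r1* encodes a scaffold that anchors proton exchangers and other membrane proteins to the apical cytoskeleton of epithelia. It read 9.67, 9.75 and 9.98 in OV, 8.63, 8.14 and 8.61 on the periotic arrays and 9.04, 8.30 and 8.94 in embryo-minus-otic tissue, with OV above all other arrays, by 1.34 (SE 0.173, 2.53-fold, *q* = 5.04e-05) and 1.04 (SE 0.173, 2.06-fold, *q* = 0.000599). Its relative *Slc9a3r2* was lower in OV than in embryo-minus-otic tissue by 0.35 (SE 0.0847, *q* = 0.0121), a call lost without OV replicate 3 (*q* = 0.0584). The pan-epithelial list held 8 probes of 7 genes on the array, of which 6 met the rule, and summed to 9309 to 9948 in OV, 796 to 977 in periotic tissue and 1320 to 1818 in embryo-minus-otic tissue. All 3 of its probes on all 9 arrays, for *Cdh1*, *Cldn6* and *Rbm35a*, were higher in OV than in both other groups, and 1 of the 2 *Spint2* probes was above background on no array. The otic list, with 11 probes of 7 genes of which 9 met the rule, summed to 7029 to 7722 in OV, 992 to 1126 in periotic tissue and 1154 to 1230 in embryo-minus-otic tissue, so that the OV label was matched by its markers. The part of epithelial content in the *Slc9a3r1* difference was not tested.

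Members that were above background on no array of a group are described by their levels and by a lower bound, with no test, because detection chose them. For this bound each array of the dim group was given the larger of its own reading and the dimmest reading that still passed detection on it, these were averaged, and the average was compared with that of the bright group. Of the 21 such probes, *Slc6a17*, a transporter of neutral amino acids into synaptic vesicles and a member of the neural transporter list, read 7.51, 7.65 and 7.59 in OV. The periotic arrays gave 5.91, 5.81 and 5.94, none above background, and the OV level was at least 2.64-fold higher. In embryo-minus-otic tissue it read 6.21, 6.15 and 6.28 and was above background on 2 of 3 arrays. *Slc26a9*, an epithelial chloride channel and exchanger, read 7.11, 6.95 and 7.12 in OV, 5.67, 5.59 and 5.53 on the periotic arrays and 5.43, 5.72 and 5.56 in embryo-minus-otic tissue, which put OV at least 1.84-fold above the former and at least 1.80-fold above the latter. Its second probe was at least 1.18-fold and at least 1.15-fold higher, and both probes became members through detection in OV alone. A further *Slc26a9* probe was above background on 2 of the 3 OV arrays and on no other array, and another was above background on no array.

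**Figure D4:**
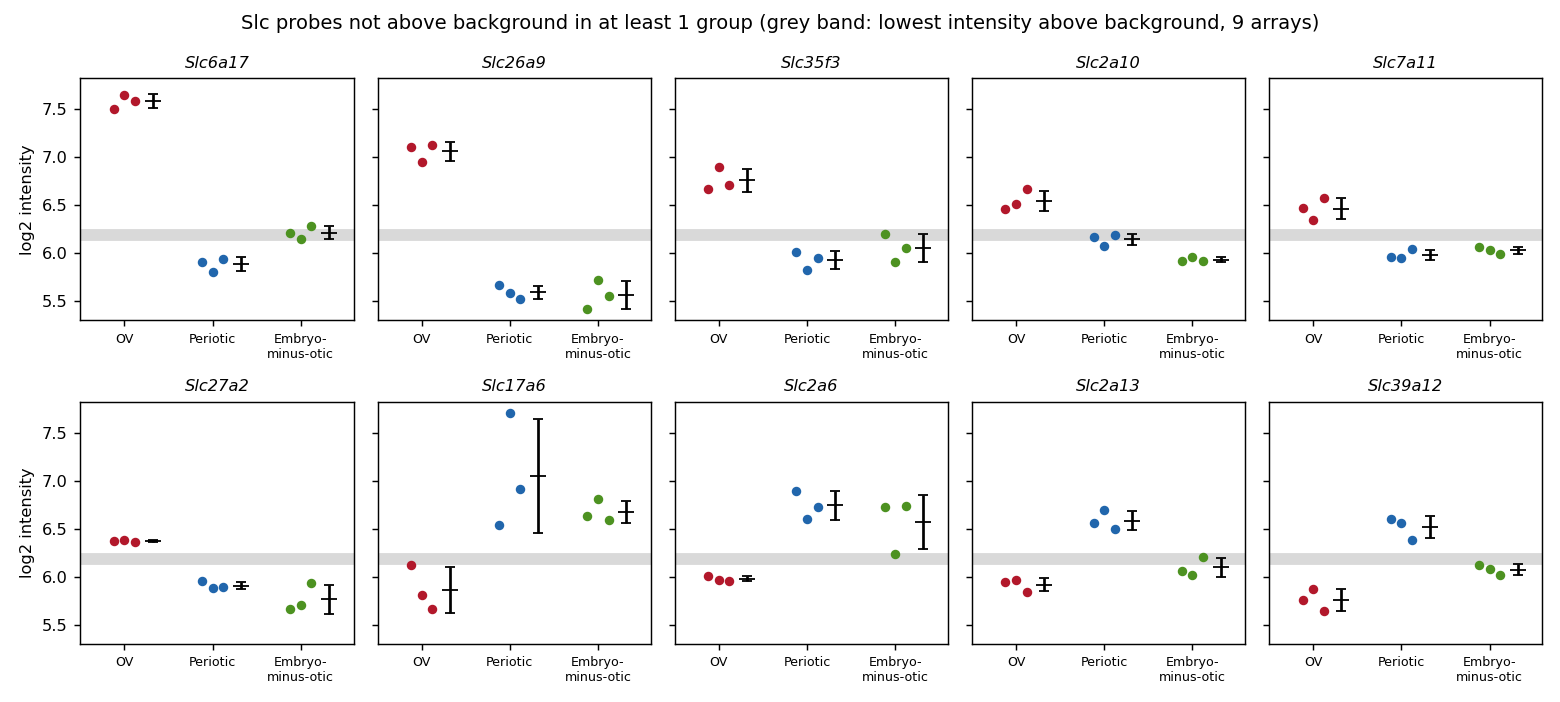
Normalized log2 intensity (y axis) on each of the 9 arrays for 10 *Slc* genes with a probe not above background on any array of at least 1 group; points are arrays, bars are the mean ± SD of 3 arrays, and the grey band spans the lowest intensity above background over the 9 arrays. *Slc6a17* and *Slc26a9* stand above the band in OV, and *Slc17a6* and *Slc2a6* stand above it on both non-otic groups' arrays with 1 *Slc2a6* array at its upper edge.

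Further members absent from a non-otic group were brighter in OV by smaller bounds. *Slc35f3*, a Golgi family member, exceeded its periotic level in OV, being at least 1.49-fold higher, with 6.67, 6.90 and 6.71 against 6.02, 5.83 and 5.95. *Slc7a11*, the cystine importer of the glutathione pathway, was at least 1.22-fold and at least 1.19-fold higher in OV than in periotic and embryo-minus-otic tissue. *Slc27a2*, a very long chain fatty acid importer, was at least 1.14-fold and 1.12-fold higher. The dimmer probes of *Slc1a7*, a glutamate carrier of the retina, and *Slc39a8*, a zinc and manganese importer, exceeded their periotic level in OV by at least 1.16-fold and at least 1.14-fold. Against embryo-minus-otic tissue, *Slc2a10*, a glucose transporter family member, was at least 1.26-fold and, by its second probe, at least 1.11-fold higher in OV. *Slc27a1*, a fatty acid importer, was at least 1.22-fold higher in OV and at least 1.05-fold higher in periotic than in embryo-minus-otic tissue, and a *Slc4a8* probe, for a sodium bicarbonate exchanger, was at least 1.12-fold higher in OV.

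Members not above background on any OV array included carriers of neural tissue, although *Slc6a17* of the same neural list was highest in OV. *Slc17a6*, the vesicular glutamate transporter of excitatory neurons, read 6.13, 5.81 and 5.66 in OV, 6.54, 7.71 and 6.91 on the periotic arrays and 6.63, 6.81 and 6.60 in embryo-minus-otic tissue. It was at least 1.81-fold higher in periotic and at least 1.40-fold higher in embryo-minus-otic tissue than in OV, and the periotic arrays spread over more than 1 log2 unit. *Slc2a6*, a hexose transporter family member, was at least 1.46-fold and at least 1.29-fold higher. *Slc2a13*, the proton-coupled myo-inositol transporter of brain, *Slc39a12*, a zinc importer of brain, and *Slc1a2*, the main glial glutamate carrier, were above background on periotic arrays alone. The periotic bounds over OV were at least 1.31-fold for *Slc2a13*, 1.25-fold for *Slc39a12* and 1.13-fold and 1.01-fold for the 2 *Slc1a2* probes. *Slc6a13*, a GABA carrier of meninges and liver, was at least 1.18-fold higher in embryo-minus-otic tissue than in OV. Unlike these, a probe each of *Slc7a7* and *Slc39a13* passed detection on 2 of the 3 OV arrays and was missing from embryo-minus-otic tissue instead. Their periotic levels were at least 1.01-fold and 1.03-fold higher than in embryo-minus-otic tissue, values close to the limit of detection. The neural tube sums given above were also highest in periotic tissue but lowest in OV. The probes of *Slc7a7* and *Slc39a13* were instead lowest in embryo-minus-otic tissue. *Slc2a13*, *Slc39a12* and *Slc1a2* became members through detection in periotic tissue alone, so their being highest there followed from the rule. The part of neural tissue in these levels was not tested.

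The 19 members between these sets were detected throughout at least 1 group and on some arrays of every group, with readings from 5.97 to 7.22 over the 9 arrays. *Slc18a2*, the vesicular monoamine carrier, read 6.82, 7.05 and 6.97 in periotic tissue, 6.44, 6.34 and 6.41 in OV and 6.24, 6.16 and 6.27 in embryo-minus-otic tissue. *Slc6a15*, a neutral amino acid carrier of neurons, read 6.64, 6.78 and 6.55 in periotic tissue and 5.97 to 6.31 elsewhere. The third vesicular class member, *Slc17a5*, which exports sialic acid from lysosomes, was on all 9 arrays and was called in no comparison. From a list of neural transporters, 10 of 27 probes met the detection rule, and 16 were above background on no array, among them probes of *Slc6a3* and *Slc6a4*, which take up dopamine and serotonin.

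Genes that carriers work with were taken from a list of sodium pump subunits, carbonic anhydrases, accessory proteins and kinases. The list was drawn up with earlier results of these data known, so its share of calls carries no test. Of its 43 probes, 17 met the detection rule and 13 were on all 9 arrays, of which 3 were higher in OV than in both other groups. Among all probes on all 9 arrays, 5.68% were higher in OV than in both. *Car4*, a membrane-anchored carbonic anhydrase that works with bicarbonate carriers, was 2.46 higher in OV than in periotic tissue (*q* = 2.30e-07) and 2.24 higher than in embryo-minus-otic tissue (*q* = 7.34e-07). *Car14*, another membrane form, was 1.37 and 0.82 higher (*q* = 2.15e-07 and 5.81e-05), and *Stk39*, a kinase that activates *Slc12a2*, 1.01 and 1.09 higher (*q* = 3.01e-07 and 1.27e-07). The sodium pump beta subunits *Atp1b1* and *Atp1b3*, both detected on every array, were called in no comparison. The 8 probes on all 9 arrays from a list of carriers that ATF4 induces on amino acid shortage included 1 higher in OV than in both groups, *Slc7a3*, and 1 lower than in embryo-minus-otic tissue, *Slc6a9*. The shares of all probes on all 9 arrays with these calls were 5.68% and 9.02%.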

How the data were processed

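RNA from 9 pools of E10.5 tissue, 3 for each group, was hybridized to 1-colour MouseRef-8 v2.0 bead arrays. The average bead signal was deposited as an intensity from GenomeStudio without normalization between arrays, and whether background was subtracted is not stated. The deposited detection p-value ranks each signal against the array's negative controls, in steps of 1 in 798. From 43.9% to 47.3% of probes were above background at a detection p under 0.01, and the number of arrays limits the precision. The methods name 3 litters but the labels tie no array to a litter, so p-values measure the spread between these pools, which may be technical.

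Arrays were grouped by the tissue in their labels. Signals were taken to log2 (a floor of 1 changed none of them) and quantile normalized together. With limma 3.58.1 in R 4.3.3, 1 linear model of the 3 groups was fitted to each of the 25697 probes with an empirical Bayes prior, and each comparison was adjusted by Benjamini-Hochberg over all probes. Steps were tested on simulated data. Array symbols were matched to a RefSeq gene table on GRCm38.p6: of the member genes, 125 matched directly and 1 through a synonym. Probes were not averaged by gene, and levels of single probes were compared only within a probe. The summed intensities of marker lists add normalized intensities on the linear scale over all probes of a list. They include probes above background on no array, so part of each sum is background.

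Members, classes and gene lists (inner ear, neural, red cell, ATF4 and partner genes, and markers of epithelium, otic cells, red cells, neural tube, mesenchyme, heart, liver and endoderm, and endothelium) were chosen with earlier results of these data known. Named probes were up to 10 called probes per comparison and direction without overlap, members absent from a group, the member of each class with the highest mean, and list members. The rest were named after their values were seen. Not all names the rule covers are printed. Some genes are not reported here. Alternatives tried were neqc (offset 16), median or no normalization, only detected probes, a detection p under 0.05, separate fits per comparison, a block for the replicate number, an intensity trend, array weights, 1 probe a gene, a test against a 1.5-fold change and each array left out.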

Additional observations from a re-analysis of the deposited data

How the results depend on the processing

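None of the 53 calls of carriers changed direction under the alternatives that gave it a value, and 33 of them held in every fit with 1 array left out. In the order OV higher and lower than periotic tissue (11 and 10), OV higher and lower than embryo-minus-otic tissue (14 and 9) and periotic higher and lower than embryo-minus-otic tissue (5 and 4), the counts of called carriers were 6, 7, 16, 5, 10 and 2 with median normalization, 3, 5, 5, 5, 1 and 2 without normalization between arrays, and 2, 2, 1, 4, 1 and 1 when tested against a 1.5-fold change. Of the 53 calls, 32 were lost without normalization between arrays and 16 with median normalization. The latter were *Slc12a2*, *Slc19a2*, *Slc22a17*, *Slc25a12*, *Slc29a1*, *Slc30a4*, *Slc35a1* and *Slc9a8* for OV against periotic tissue, *Slc16a6*, *Slc24a3*, *Slc25a24*, *Slc30a4*, *Slc6a9* and *Slc9a3r2* for OV against embryo-minus-otic tissue, and *Slc35d1* and *Slc40a1* between the non-otic groups. With 1 array left out the counts ranged from 7 to 12, 6 to 11, 8 to 16, 7 to 10, 3 to 7 and 3 to 7. With the replicate number as a block they were 11, 10, 17, 10, 4 and 6. The labels do not say that the numbers pair the samples. Same-number arrays of different groups deviated from their group means with correlations from 0.008 to 0.182, all positive but not all over 0.1. Between arrays of different numbers and groups the correlations ran from -0.143 to 0.0491 and were mostly negative. Not every array correlated best with its own number, and whether the numbers mark litters was not tested. The other alternatives kept each count within 1.5 times. The cause of these changes was not tested. For OV against embryo-minus-otic tissue the median difference over all probes moved from 0.0043 to 0.0463 with median normalization and to -0.0904 without normalization. Between the non-otic groups it moved almost as far, from 0.0066 to 0.0478 and to -0.0846. For OV against periotic tissue it moved by only 0.0009 and -0.0034. The arrays' background limits what can be said of the 40 members not on all 9 arrays, for which only levels and bounds were given.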

Other observations

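The probe of *Slc25a17*, a peroxisomal carrier grouped with the mitochondrial family, differed between replicate numbers rather than tissues. It read 9.23, 9.12 and 7.63 on OV replicates 1 to 3, 9.14, 9.21 and 7.67 on the periotic arrays and 8.93, 9.16 and 7.57 on the embryo-minus-otic arrays, so that replicate 3 of each group was lower than the others by over 1 log2 unit. Of the 9767 probes on all 9 arrays, 4 had replicate 3 apart from the other arrays by over 1 in the same direction in all groups, and this was the 1 *Slc* probe among them. This probe was picked after its values were seen. A probe of *Slc25a3*, the mitochondrial phosphate carrier, read 11.35, 11.45 and 10.74 in OV, 11.21, 11.44 and 10.96 on the periotic arrays and 11.08, 11.61 and 10.64 in embryo-minus-otic tissue, lowest on replicate 3 in each group, while its second probe was highest there in each group, at 10.28, 10.26 and 10.26.

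The spread of *Slc* probes within groups was close to that of other probes. The median SD over 3 arrays was 0.105, 0.0964 and 0.139 in OV, periotic and embryo-minus-otic tissue for the 124 *Slc* probes on all 9 arrays, and 0.112, 0.118 and 0.144 for all such probes. Marker sums for mesenchyme were 1996 to 2244 in OV, 3450 to 3846 in periotic tissue and 3782 to 5066 in embryo-minus-otic tissue, and those for liver and endoderm 461 to 487, 492 to 546 and 888 to 1046.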
